A study of Mus musculus with 8 samples.

Results

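The 7 transcription factor genes followed here, which pattern the early nephron, were Pax2, Pax8, Lhx1, Emx1, Emx2, Pou3f3 and Hnf4a. They were chosen by name, as the rows of the deposited count table whose gene name is one of the 7, out of 30890 genes in all. All 7 were among the 16723 genes that passed the filter on low counts. RNA was sequenced from whole kidneys that had been removed from C57BL/6 mouse embryos at E12.5 and kept in culture for 72 h. The treated group (n = 4) received CHIR99021 at 5 µM, an inhibitor of GSK-3 that raises β-catenin, and the control group (n = 4) received DMSO, the solvent, at 0.1%. No transgene or mutation was used, and the organ was cultured whole, so that ureteric, nephron, stromal and other cells were measured together. The study assigned the left kidney of an embryo to DMSO and the right kidney to CHIR99021, and it left out kidneys whose β-catenin target genes did not respond, which means that higher targets here are no independent evidence of the treatment.

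In the developing kidney, mesenchymal progenitors around the tips of the ureteric bud are induced by Wnt signals to form an epithelial vesicle, which is then patterned into distal, medial and proximal parts. Pax2 and Pax8 encode paired-box factors that act together at the start of kidney formation, and Lhx1 encodes a LIM homeobox factor needed in the renal vesicle. Emx2 is a homeobox gene of the ureteric bud and its close relative Emx1 is best known from the forebrain. Pou3f3 encodes a POU-domain factor of the loop of Henle and distal tubule, and Hnf4a a nuclear receptor of the proximal tubule that is also used in liver.

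In all, 6 of the 7 genes were lower in the CHIR99021 group and 1, Emx2, was higher. Levels are given as CPM, which is counts relative to the scaled library size, and fold changes as log2 of CHIR99021 over DMSO with the standard error (SE) of edgeR's quasi-likelihood fit. All 7 passed an adjusted p of 0.05, where 48.7% of all tested genes did (25.0% lower and 23.7% higher). In none of the 7 did the levels of the groups overlap, which held for 46.1% of all tested genes (23.4% lower and 22.7% higher). With a change of more than 1 on the log2 scale added to the threshold, 4 of the 7 were lower (Lhx1, Emx1, Pou3f3 and Hnf4a), against 9.16% of tested genes lower and 4.65% higher. As the groups did not overlap, each of the 6 fell and Emx2 rose in all 4 same-numbered pairs. Any other pairing would give the same, so the pairs add no support here. In a whole organ, fewer cells of a type and less RNA per cell cannot be told apart.

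**Figure D1:**
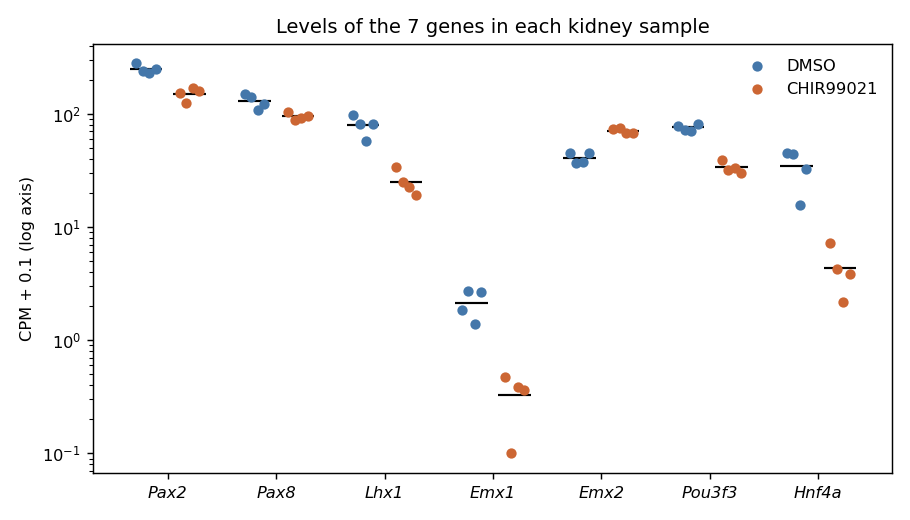
Level of each of the 7 genes in each of the 8 kidney samples, as CPM plus 0.1 on a log axis, with DMSO in blue and CHIR99021 in orange and replicates 1 to 4 from left to right. Black lines are group means (n = 4). The groups do not overlap for any gene, and Emx2 is the 1 gene with its orange points above the blue ones.

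The libraries held 14599082 to 17751992 counts. The 9 feedback targets of β-catenin listed for a check of the treatment were all higher with CHIR99021, with a median log2 fold change of 3.24. Summed CPM of 8 liver genes was 1270 and 901.2 in DMSO replicates 2 and 4, 57.24 and 7.498 in DMSO replicates 1 and 3, and 1.183 to 7.551 with CHIR99021. Summed CPM of 6 neuron and neural crest genes was 88.83 in CHIR99021 replicate 2 and 8.238 to 14.57 in the other 3 CHIR99021 samples, against 27.0 to 61.55 with DMSO. The 6 macrophage genes summed to 47.7 CPM in DMSO replicate 4, to 166.4 to 181.4 in the other 3 DMSO samples, and to 4.733 to 22.03 with CHIR99021. The part of these cells in the results below was not tested, also where a value without a library is given.

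Pax2 was the most abundant of the 7 per length in both groups. Its level was 278.3, 241.0, 229.1 and 250.3 CPM in DMSO replicates 1 to 4. It was 151.4, 124.6, 168.2 and 157.7 CPM in CHIR99021 replicates 1 to 4. The highest CHIR99021 sample thus stayed below the lowest DMSO sample, and the mean with CHIR99021 was 60.3% of that with DMSO. The log2 fold change was -0.73 (SE 0.090, adjusted p = 7.03e-05, edgeR), and 20.3% of tested genes changed by more in either direction. Pax2 (ENSMUSG00000004231) lies at chr19:44756045-44837871 on the plus strand of GRCm38.

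Pax8, the other paired-box gene, had the smallest change of the 7. DMSO replicates 1 to 4 had 150.0, 141.6, 107.7 and 121.4 CPM, and CHIR99021 replicates 1 to 4 had 104.1, 88.43, 91.86 and 95.25 CPM. The gap between the groups was narrow, since CHIR99021 replicate 1 reached nearly the level of DMSO replicate 3. The log2 fold change was -0.46 (SE 0.099, adjusted p = 0.00333, edgeR), and 33.3% of tested genes changed by more. Pax8 (ENSMUSG00000026976, chr2:24420560-24475599, minus strand) shares 367 exon bases with Gm13415, a transcript of the opposite strand, which is 6.06% of its exon bases.

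Whether the 2 Pax genes fell by different amounts was tested on the ratio of their FPKM values, the deposited levels per length. In every ratio tested, 0.01 was added to the FPKM of both genes. The ratio of Pax2 to Pax8 ranged from 1.91 to 2.38 with DMSO and from 1.58 to 2.05 with CHIR99021, and these ranges overlapped. The mean log2 ratio was 1.11 ± 0.147 (SD, n = 4) with DMSO and 0.823 ± 0.174 with CHIR99021. The difference of -0.289 did not pass the threshold (exact two-sided permutation test, p = 0.0571, adjusted p = 0.0571 over 5 ratios). Within pairs the ratio was lower with CHIR99021 in all 4, going from 2.08 to 1.63, from 1.91 to 1.58, from 2.38 to 2.05 and from 2.31 to 1.85. An exact test of the 4 paired differences gave p = 0.125, the smallest that 4 pairs allow, so that the paired design could not pass the threshold.

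Lhx1 fell further than the Pax genes. DMSO replicates 1 to 4 had 97.27, 81.42, 57.64 and 80.48 CPM. CHIR99021 replicates 1 to 4 had 33.64, 25.1, 22.39 and 19.19 CPM. DMSO replicate 3 was the lowest of its group, as it was for Pax2 and Pax8, and still lay above every CHIR99021 sample. The mean with CHIR99021 was 31.7% of that with DMSO, a log2 fold change of -1.66 (SE 0.21, adjusted p = 0.00035, edgeR). Per length, Lhx1 stood at 0.797 to 0.986 of Pax8 with DMSO and at 0.300 to 0.481 with CHIR99021. The log2 ratio differed by -1.22 (exact two-sided permutation test, p = 0.0286, the smallest that 4 against 4 samples can give, adjusted p = 0.0357 over 5 ratios).

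Lhx1 (ENSMUSG00000018698, chr11:84518284-84525535, minus strand) and the noncoding gene Lhx1os start next to each other on opposite strands, with 124 bases between them and no shared exon. Lhx1os had 8.223, 10.56, 8.435 and 11.32 CPM with DMSO and 3.869, 4.686, 4.45 and 4.01 CPM with CHIR99021. It fell by 1.18 on the log2 scale (SE 0.15, adjusted p = 2.85e-05, edgeR), and its groups did not overlap. Aatf, the next gene on the other side, had a log2 fold change of 0.12 (adjusted p = 0.281, edgeR). The bases between the starts of Lhx1 and Lhx1os are shown because both neighbours of this stretch fell (RefSeq sequence of GRCm38.p6, chr11:84525536-84525659, minus strand, 5′ to 3′). The capitals mark its 1 CCAAT box, here on the opposite strand and so written ATTGG.
Lhx1 to Lhx1os: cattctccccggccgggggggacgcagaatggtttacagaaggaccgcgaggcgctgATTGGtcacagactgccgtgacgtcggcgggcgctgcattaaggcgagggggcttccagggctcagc

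Emx1 was the least abundant of the 7 genes and had the largest fold change. Its counts were 32, 46, 22 and 39 in DMSO replicates 1 to 4 and 6, 0, 4 and 4 in CHIR99021 replicates 1 to 4. In CPM these were 1.731, 2.626, 1.289 and 2.552 with DMSO and 0.3744, 0, 0.2871 and 0.2629 with CHIR99021. All 4 treated samples lay below the lowest control, but the group rested on 14 counts in total against 139. Emx1 thus passed the filter on low counts only through the DMSO group, where it was high. The log2 fold change was -3.09 (SE 0.48, adjusted p = 0.000155, edgeR), and 2.29% of tested genes changed by more. With limma on log2(FPKM + 1), a scale that understates the change of low genes, it was -0.84 (adjusted p = 0.00023). Sfxn5, which ends within 10 kb of Emx1 (ENSMUSG00000033726, chr6:85187438-85204462), had a log2 fold change of -0.23 (adjusted p = 0.130, edgeR).

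Emx2 went the other way. DMSO replicates 1 to 4 had 45.01, 36.88, 37.08 and 45.08 CPM, and CHIR99021 replicates 1 to 4 had 72.89, 74.1, 67.75 and 67.51 CPM. The spread within each group was small beside the gap between them. The log2 fold change was 0.78 (SE 0.077, adjusted p = 3.68e-06, edgeR). Emx2os, an antisense gene that overlaps the start of Emx2, rose by the same 0.78 (SE 0.11, adjusted p = 6.61e-05, edgeR), from 13.74, 14.73, 11.25 and 15.18 CPM with DMSO to 26.4, 24.37, 20.6 and 23.07 CPM with CHIR99021. The 2 genes share 264 exon bases, which is 8.79% of the exon bases of Emx2 and 5.26% of those of Emx2os. No source used here states a strand setting for the counting, and without strand, reads over the shared bases cannot be told apart between both genes. Emx2 (ENSMUSG00000043969) lies at chr19:59458372-59465357 on the plus strand.

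The 2 Emx genes diverged within every sample. With 0.01 added to both, the FPKM of Emx2 was 10.1 to 20.6 times that of Emx1 with DMSO. In CHIR99021 replicates 1, 3 and 4 it was 133, 159 and 172 times that of Emx1. In CHIR99021 replicate 2, with no count of Emx1, a floor of 3 counts in that library makes it at least 268-fold higher. The value at the floor is taken without the 0.01, so it is not on the same scale as the others. On log2 of FPKM plus 0.01 the ratio differed by 4.35 between groups (exact two-sided permutation test, p = 0.0286, adjusted p = 0.0357 over 5 ratios), and by 3.37 without CHIR99021 replicate 2, where the smallest p possible is 0.0571.

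Pou3f3, the POU-domain gene of the distal nephron, was lower with little spread in either group. DMSO replicates 1 to 4 had 77.52, 72.57, 71.11 and 81.4 CPM, and CHIR99021 replicates 1 to 4 had 39.38, 32.06, 33.09 and 29.71 CPM. Every CHIR99021 sample lay far below the lowest DMSO sample. The log2 fold change was -1.17 (SE 0.083, adjusted p = 2.06e-07, edgeR). Pou3f3 (ENSMUSG00000045515) lies at chr1:42695768-42703176 on the plus strand. The noncoding genes on its 2 sides, both on the opposite strand and without shared exons, were lower too. Pantr1, 925 bases away, had 2.326, 1.941, 2.929 and 3.468 CPM with DMSO and 1.747, 1.138, 1.507 and 0.9203 CPM with CHIR99021, and it fell by 0.995 on the log2 scale (SE 0.27, adjusted p = 0.0077, edgeR). With limma on log2(count + 1) the call of Pantr1 was lost (adjusted p = 0.056). Pantr2, 3884 bases away, fell by 1.18 (SE 0.18, adjusted p = 0.00016, edgeR), from 3.749 to 4.544 CPM with DMSO to 1.446 to 2.122 CPM with CHIR99021.

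The 250 bases before the start of Pou3f3, which lie between it and Pantr1, are shown for the same reason as those of Lhx1 (RefSeq sequence of GRCm38.p6, chr1:42695518-42695767, plus strand, 5′ to 3′). Gm20646, an untested gene on the same strand (chr1:42694925-42744791), spans this stretch and Pou3f3. The capitals mark 3 CCAAT boxes, all on the strand of Pou3f3.
Pou3f3 upstream: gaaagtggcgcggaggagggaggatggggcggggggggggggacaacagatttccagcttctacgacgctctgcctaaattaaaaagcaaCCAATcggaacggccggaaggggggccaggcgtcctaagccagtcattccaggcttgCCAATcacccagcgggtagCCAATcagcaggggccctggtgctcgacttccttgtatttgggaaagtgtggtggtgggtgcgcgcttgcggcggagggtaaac
At least 3 CCAAT boxes on either strand were found in 2.79% of 32851 RefSeq windows of 250 bases before a gene start, and at least 1 in 33.8%. The 7 genes have 10 such windows, as Pax2 has 3 and Hnf4a has 2, and 6 of the 10 hold a CCAAT box. The letters CTTTGA, a form of the core recognised by TCF and LEF factors, were in none of the 10 windows and in 13.8% of all windows. Other forms of that core were not searched. The letters TAATTA, a homeobox motif, were in 1 of the 10, at Hnf4a, and in 4.84% of all. Both strands were searched, and none of the 3 motifs can overlap another by more than 1 letter. A match is a description of the letters only.

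Hnf4a, the proximal tubule nuclear receptor, fell the most after Emx1 and varied most among the controls. DMSO replicates 1 to 4 had 44.79, 44.02, 15.7 and 32.52 CPM. CHIR99021 replicates 1 to 4 had 7.114, 4.15, 2.081 and 3.747 CPM. Replicate 3 was the lowest of each group, and the groups did not overlap. The log2 fold change was -2.99 (SE 0.46, adjusted p = 0.00155, edgeR), and 2.51% of tested genes changed by more. With the replicate number as a block the SE was 0.12 (adjusted p = 6.64e-09, edgeR), and the differences within the 4 pairs ran from -2.64 to -3.38. Hnf4a is also a liver gene, and liver genes were high in DMSO replicates 2 and 4. They summed to 57.24 CPM in DMSO replicate 1, where Hnf4a was highest, and to 7.498 CPM in DMSO replicate 3, where Hnf4a was the lowest of the controls. Without DMSO replicates 2 and 4 the log2 fold change of Hnf4a was -2.82 (adjusted p = 0.0145, edgeR). The part of liver cells in the fall of Hnf4a was not tested. Hnf4a (ENSMUSG00000017950) lies at chr2:163506808-163572910 on the plus strand.

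**Figure D2:**
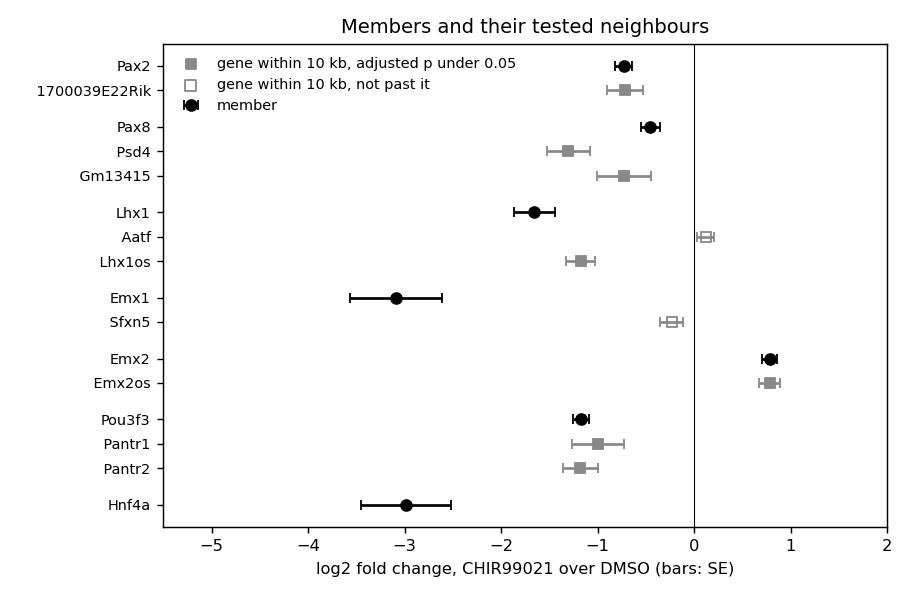
Log2 fold change of CHIR99021 over DMSO (bars are the SE of the edgeR fit, 4 samples a group) for the 7 genes as circles and for tested genes within 10 kb as squares, filled where the adjusted p is under 0.05. Lhx1os, Emx2os, Pantr1 and Pantr2 lie on the same side of 0 as the gene beside them, and Aatf and Sfxn5 are open squares near 0.

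Among the other tested neighbours, 1700039E22Rik, an antisense gene within Pax2 that shares no exon with it, fell by 0.72 (adjusted p = 0.00671, edgeR), and its call was lost with limma on log2(count + 1) (adjusted p = 0.104). Without strand, reads of unspliced Pax2 RNA over it cannot be told apart from its own. Psd4, 5605 bases beyond the end of Pax8, fell by 1.30 (SE 0.23, adjusted p = 0.000389, edgeR). Gm13415, which overlaps Pax8, had 150 counts over all samples and passed narrowly (-0.73, adjusted p = 0.0496, edgeR), and with the replicate block it did not (adjusted p = 0.0607). Of the 15 genes within 10 kb of the 7, 9 were tested, 6 were lower, 1 was higher and 2 did not pass. Over all tested genes, 25.0% were lower and 23.7% higher. The other 6 (Gm20395, Mir6405, Gm27193, Gm20646, Hnf4aos and R3hdml) had 2 to 78 counts over all samples and were not tested.

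The 7 genes were then ranked by FPKM, which is comparable between genes. With DMSO the order was Pax2 (48.3 ± 3.86, SD, n = 4), Pax8 (22.4 ± 3.18), Lhx1 (20.3 ± 4.08), Emx2 (14.3 ± 1.60), Pou3f3 (10.7 ± 0.651), Hnf4a (7.41 ± 2.90) and Emx1 (0.980 ± 0.307). The ranges of Pax8 and Lhx1 overlapped, as did those of Lhx1 and Emx2, although in each sample the first of each pair was the higher. With CHIR99021 the order was Pax2 (26.5 ± 3.38), Emx2 (22.4 ± 0.955), Pax8 (14.9 ± 1.07), Lhx1 (5.86 ± 1.42), Pou3f3 (4.31 ± 0.517), Hnf4a (0.842 ± 0.411) and Emx1 (0.101 ± 0.0703). Emx2 had thus moved from the fourth place to the second, where its range overlapped that of Pax2, which was the higher in 3 of 4 samples. The ranges of Lhx1 and Pou3f3 overlapped in the treated group.

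The summed FPKM of the 7 genes was 106 to 141 with DMSO and 69.7 to 80.4 with CHIR99021. FPKM lacks the library scaling used for CPM. With limma on log2(FPKM + 0.1) the median log2 fold change of all tested genes was -0.134, against -0.00293 with edgeR. The difference between the sums includes this shift. Emx2 made up 11.5% ± 1.08 (SD, n = 4) of the sum with DMSO and 29.9% ± 2.39 with CHIR99021, and Lhx1 went from 16.2% ± 1.49 to 7.79% ± 1.61. The share of Pax8 was 18.0% ± 1.11 and 19.9% ± 0.594, with overlapping ranges. Shares of a sum are tied to each other, so that a rise of one lowers the rest.

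**Figure D3:**
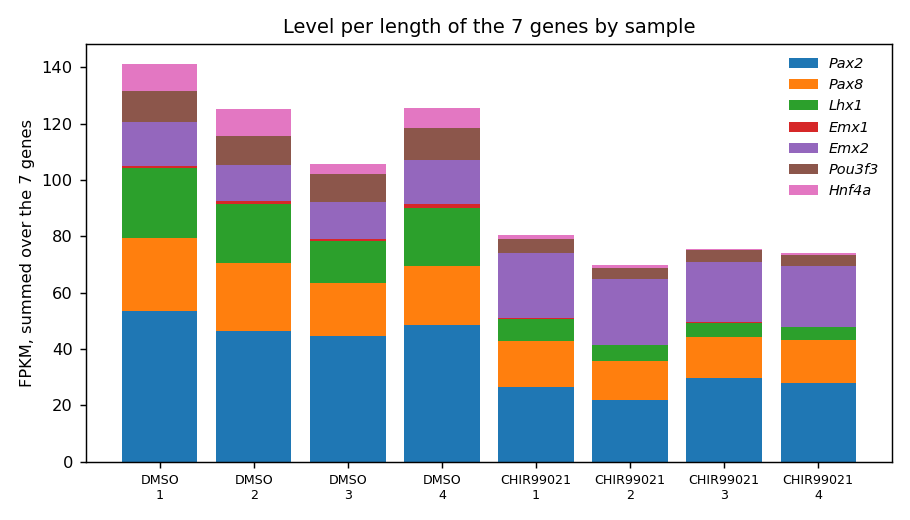
Stacked FPKM of the 7 genes in each of the 8 samples, from DMSO replicate 1 at the left to CHIR99021 replicate 4 at the right. The bars reach 106 to 141 with DMSO and 69.7 to 80.4 with CHIR99021, while the Emx2 segment is taller in each CHIR99021 bar. FPKM lacks the library scaling used for CPM.

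Pou3f3, of the distal nephron, and Lhx1, of the renal vesicle, were each set against Hnf4a, of the proximal tubule. The ratios given here are of FPKM with 0.01 added to both genes. The FPKM of Pou3f3 was 1.07 to 2.95 times that of Hnf4a with DMSO and 3.59 to 10.1 times with CHIR99021. That of Lhx1 was 2.19 to 4.34 times that of Hnf4a with DMSO and at least 5.57 times in every CHIR99021 sample. Hnf4a thus fell by more than either gene. The log2 ratio was higher with CHIR99021 by 1.83 for Pou3f3 over Hnf4a and by 1.34 for Lhx1 over Hnf4a (exact two-sided permutation tests, each p = 0.0286, adjusted p = 0.0357 over 5 ratios).

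**Figure D4:**
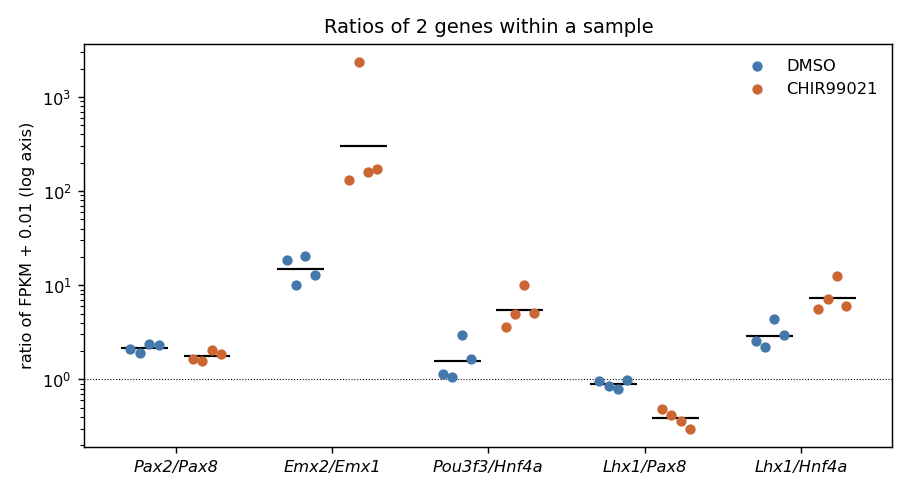
FPKM ratio of 2 of the genes within each sample (0.01 added to both, log axis), with DMSO in blue, CHIR99021 in orange and geometric means as lines (n = 4). The groups overlap for Pax2/Pax8 and are apart for the other 4 ratios, and the highest Emx2/Emx1 point, CHIR99021 replicate 2, has 0 counts of Emx1 and is set by the 0.01 added.

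Relatives of the 7 genes were mostly too low to be tested in these kidneys. Over all tested genes, 23.7% were higher and 25.0% lower. Of 21 other Pax, LIM homeobox, Pou3f and Hnf4 genes listed, 3 were tested (Lhx6, Isl1 and Pou3f1), and 1 of them passed, Pou3f1, which rose by 2.01 on the log2 scale (SE 0.34, adjusted p = 0.000306, edgeR) from 0.346 to 1.44 CPM. Its counts were 9, 6, 5 and 4 with DMSO and 24, 25, 24 and 13 with CHIR99021. Pou3f1 thus passed the filter only through the group where it was high. The count of relatives by direction depends on which of them the filter let through. Isl1 was high in replicate 2 of both groups, at 4.625 CPM with DMSO and 14.59 CPM with CHIR99021, as the neuron and neural crest genes were, and with the replicate block it passed too, so that 2 of 3 rose. No tested relative was lower with edgeR, at an unadjusted p of 0.05 either, and DESeq2, which tested more of them, called 1 lower. Pou3f2 and Hnf4g were too low to be tested. Hnf4g had 20, 34, 6 and 14 counts with DMSO and 2, 0, 1 and 0 with CHIR99021, and DMSO replicate 3 was again the lowest control.

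Cofactors of Pax and LIM homeobox proteins went in both directions, as all tested genes did (23.7% higher and 25.0% lower). Of 8 tested, 2 were higher and 4 lower, with a median log2 fold change of -0.06. Ldb1, the common partner of LIM homeobox factors, had 0.03 (adjusted p = 0.655, edgeR). Its relative Ldb2 fell by 1.73 (SE 0.13, adjusted p = 1.86e-06, edgeR). Ldb2 is known from endothelium, whose 5 listed markers were all lower, with a median of -1.52. The part of endothelial cells in the fall of Ldb2 was not tested. Paxip1, which links Pax2 to a histone methyltransferase, fell by 0.14 (SE 0.046, adjusted p = 0.0263, edgeR).

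Genes of nephron induction and the renal vesicle went in both directions. Of 20 tested, 5 were higher and 13 lower, where 23.7% and 25.0% of all tested genes were. The median was -0.62, against -0.0029 over all tested genes. Wnt4, the signal that drives the mesenchyme to become epithelium, rose by 2.35 (SE 0.24, adjusted p = 0.000193, edgeR), from a mean of 59.4 to 304 CPM. Of the 13 lower genes, Bmper fell by 2.91, Ccnd1 by 1.58, Lfng by 1.37 and Notch2 by 0.76 (each with an adjusted p of at most 3.01e-06, edgeR). Beside Wnt4, the higher genes were Bmp2 (1.95), Greb1 (1.51), Cdh4 (0.77) and Dkk1 (0.75), named after their values were seen. Each had an adjusted p of at most 0.0381 (edgeR). Fgf8, which is needed for Lhx1 expression in the vesicle, fell by 0.53 (SE 0.17, adjusted p = 0.0182, edgeR), from 9.93 to 6.84 CPM, with overlapping groups.

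Progenitor genes were lower with few exceptions. Of 16 tested, 14 were lower, against 25.0% of all tested genes, and the median was -2.40. The list includes Six2, Meox2, Crym, Cited1, Uncx and Gas1, which the paper names as downregulated in these same data. Its count and median are therefore not independent of that result. Six2, which keeps progenitors from differentiating, fell by 5.33 (SE 0.21, adjusted p = 3.35e-07, edgeR) and Wt1 by 1.41 (SE 0.067, adjusted p = 5.88e-09, edgeR). With edgeR 0 were higher, at an unadjusted p of 0.05 likewise and with each limma fit, while DESeq2 and the edgeR fit with the replicate block called 1, which with the block was Hoxd11 (named after its value was seen).

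The segment lists were mostly lower, where 25.0% of all tested genes were lower and 23.7% higher. For the proximal tubule, 10 of 13 tested genes were lower and 1 higher, with a median of -1.40. The paper names Slc34a1 and Osr2 of this list as downregulated in these same data, so the count is not independent of that result. Cubn, an endocytic receptor, fell by 2.34 (SE 0.41, adjusted p = 0.00117, edgeR) and Cdhr5, a brush border cadherin, by 1.37 (SE 0.28, adjusted p = 0.00122, edgeR). Ass1, of the urea cycle, rose by 1.10 (SE 0.13, adjusted p = 5.97e-05, edgeR). The summed level of the list was 436.5, 407.2, 190.1 and 302.9 CPM with DMSO and 169.3, 163.1, 137.1 and 140.8 CPM with CHIR99021. As for Hnf4a, replicate 3 was the lowest sample of both groups.

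For the loop of Henle and distal tubule, 12 of 15 tested genes were lower, against 25.0% of all tested genes. The median was -2.06. Irx1 and Irx2, homeobox genes of the middle nephron, fell by 3.82 (SE 0.30) and 3.40 (SE 0.31), Sim2 by 4.25 and the nuclear receptor gene Esrrg by 2.20 (each with an adjusted p of at most 2.92e-06, edgeR). Irx3 had a log2 fold change of 0.16 (SE 0.14, adjusted p = 0.372, edgeR). With edgeR 0 were higher (1 at an unadjusted p of 0.05, and 0 with DESeq2 and each limma fit), and 2 were with the replicate block, Wfdc2 and Tfap2a (named after their values were seen).

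For podocytes, 8 of 12 tested genes were lower and 3 higher, where 25.0% and 23.7% of all tested genes were. The median was -1.06. The ureteric epithelium, which also expresses Pax2, Pax8, Lhx1 and Emx2, had 13 of 18 tested genes lower and 1 higher, with a median of -0.77. Ret, the receptor of the tips, fell by 0.95 (SE 0.24, adjusted p = 0.0091, edgeR) and Gata3 by 0.32 (SE 0.092, adjusted p = 0.0111, edgeR). Aqp2, the water channel of the collecting duct, fell by 3.30, and the epithelial adhesion gene Epcam rose by 0.51 (SE 0.064, adjusted p = 3.03e-05, edgeR), from 155 to 221 CPM.

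**Figure D5:**
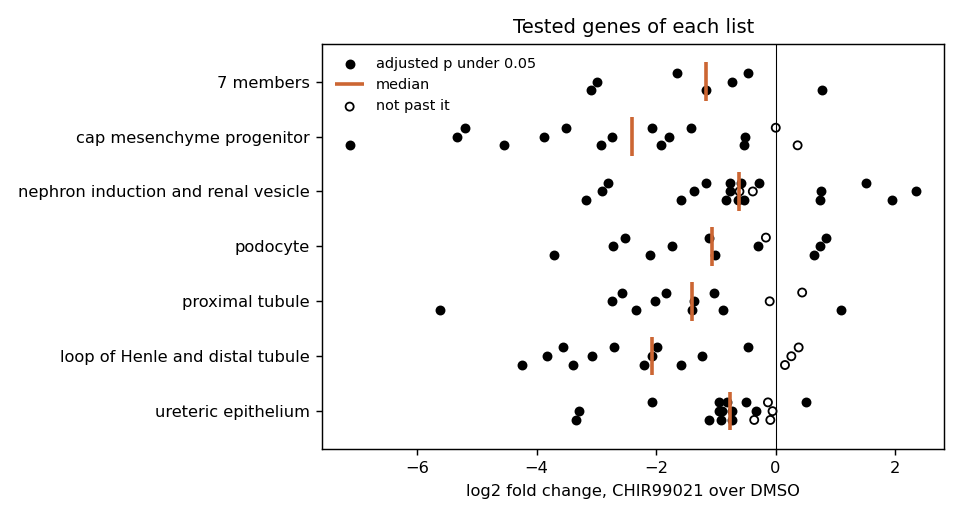
Log2 fold change of CHIR99021 over DMSO for each tested gene of 6 kidney lists and for the 7 transcription factor genes, 1 point a gene, filled where the edgeR adjusted p is under 0.05, with the median of each row as an orange bar. The medians of the lists lie between -2.40 (cap mesenchyme progenitor) and -0.62 (nephron induction and renal vesicle), and Emx2 is the 1 point of the top row above 0.

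Of the markers of other cells, all 6 macrophage and 5 endothelial genes were lower, as were the 3 liver genes tested of 8 (Alb, Ttr, Apoa1, Fgb and Trf were not tested). Without DMSO replicate 2 or 4, or without any 1 CHIR99021 sample, 1 liver gene was lower. For each of these 3 lists 0 genes were higher with edgeR, at an unadjusted p of 0.05, with DESeq2 and with each limma fit. The macrophage list includes Csf1r, C1qb and Cx3cr1, which the paper names as downregulated in these same data. Its count is therefore not independent of that result. Of 7 stromal genes 3 were higher and 2 lower, where 23.7% and 25.0% of all tested genes were. Pdgfra rose by 1.19 (SE 0.067, adjusted p = 2.88e-08, edgeR), as did the collagen genes Col1a1 and Col3a1 (1.335 and 0.64). Foxd1 fell by 0.53 (SE 0.16, adjusted p = 0.0168, edgeR) and Meis1 by 0.33 (SE 0.068, adjusted p = 0.00136, edgeR). Pdgfrb and Tbx18 did not pass. Of neuron and neural crest genes 1 of 4 tested was lower, a call that held of all single samples left out only without CHIR99021 replicate 2, and of gonad and adrenal genes 1 of 3.

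The genes whose levels over the 8 samples lay nearest to each of the 7, by root mean square difference of log2 CPM about its own mean, were sought among all tested genes. For Pax2 they were Nemp1 (0.0555) and Ccne2 (0.0556), for Pax8 Epb41l5 (0.0564) and Kiz (0.0601), and for Emx2 Tmcc2 (0.0613) and Mex3b (0.0786). For Lhx1 they were Aass (0.110) and Adamts16 (0.116), and for Pou3f3 Cbx7 (0.0898) was among them. For Emx1, with few counts, they were Drd1 (0.180) and Dclk3 (0.217). For Hnf4a they were Sult1d1 (0.140), a sulfotransferase gene, and Agtr1a (0.237), an angiotensin II receptor gene. The difference between groups is part of this measure, which therefore favours genes with a like fold change.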

How the data were processed

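The deposited count values per gene were made by the authors, who filtered the reads, aligned them with HISAT2 2.0.5 (per the submitters' processing notes; build GRCm38) and counted them with featureCounts, and are unscaled whole numbers. The deposited FPKM values are the authors' fragments scaled by gene length and library size. The table also holds the authors' group comparison (mean, fold change, p-values), which was not used, and it has 0 unused sample columns. The strand setting and annotation release are not given in the sources used here. Labels and paper name different extraction and library kits.

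Tools were DESeq2 1.42.0, limma 3.58.1 and edgeR 4.0.16 in R 4.3.3. The filter was filterByExpr (minimum count 10, minimum total 15), leaving 16723 of 30890 genes. Libraries were scaled by TMM, and edgeR's quasi-likelihood test compared the groups with no other term, with Benjamini-Hochberg adjustment over all tested genes. Ratios were tested by exact permutation over samples. The fit was tested on simulated data. Replicates of a group were not duplicates. Gene positions are those of the files and were equal in GENCODE M21. Promoter windows came from RefSeq (GRCm38.p6). Intervals and floors cover counting error only.

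The paper pairs left and right kidneys of an embryo, and both groups carry replicate numbers 1 to 4. Same-numbered samples correlated at 0.111 to 0.346 about their group means and other pairs at -0.180 to 0.0766, so that the numbers were taken as pairs for the block. Alternatives were the block, RLE scaling, DESeq2, no filter, limma on log2(count + 1), log2(FPKM + 1) and log2(FPKM + 0.1), each sample left out, and DMSO replicates 2 and 4 left out.

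The 7 genes, the 15 lists and the rule for named genes were chosen with earlier results of these data known. The rule took the 7, all genes within 10 kb, up to 4 genes of smallest p from each list, some fixed regulators, and the 2 genes nearest in level to each of the 7. Some genes that the rule gives are not reported here.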

Additional observations from a re-analysis of the deposited data

Results flagged for a closer look

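In a group of 4 samples, 1 sample can stand far from the other 3, and this was so for 13 of 194 groups tested, where chance gives about 1 in 20. None of these was a level of 1 of the 7 genes. The log2 ratio of Emx2 to Emx1 was highest in CHIR99021 replicate 2, at 11.2, where Emx1 had 0 counts and the value is set by the 0.01 FPKM added.

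Replicate 2 stood high in both groups for Isl1 (4.62 CPM with DMSO and 14.6 with CHIR99021), Tubb3 (13.2 and 30.3) and Stmn2 (15.4 and 26.5), and in the CHIR99021 group for Elavl4 (14.0). Col4a4 was highest in DMSO replicate 4 (48.8 CPM) and Col3a1 in DMSO replicate 3 (1980 CPM). Pdgfra (478 CPM) and Col1a1 (3890 CPM) were lowest in CHIR99021 replicate 1. Serpina1a had 1 count in CHIR99021 replicate 3 (0.0718 CPM) and 0 in the other CHIR99021 samples.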

How the results depend on the processing

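Under all 16 alternatives each of the 7 genes kept its direction and its call, and the count of the 7 stayed at 6 lower and 1 higher. With limma on log2(FPKM + 0.1) the median of all genes was -0.134, and 2437 genes were higher and 5899 lower, against 3958 and 4180 with edgeR. With log2(FPKM + 1) they were 2520 and 6032. The 4 ratios that passed lost the call when any sample was left out, as 3 against 4 samples cannot go below p = 0.0571 in the exact permutation test. Their differences then ranged from 3.37 to 4.74 for Emx2/Emx1, 1.54 to 2.14 for Pou3f3/Hnf4a, -1.32 to -1.10 for Lhx1/Pax8 and 1.09 to 1.53 for Lhx1/Hnf4a. Over the 4 pairs (replicate block, sign flips) the differences were 4.35, 1.83, -1.22 and 1.34, each at an exact p = 0.125, the smallest 4 pairs allow.

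List counts moved by more than 1.5 times as follows, and the cause was not tested. With the replicate block, higher genes went from 0 to 1 for progenitors, 0 to 2 for the distal tubule and 1 to 2 for relatives, and apart from Gm13415 and these it changed no other call described. With DESeq2, 1 progenitor gene was higher and 1 relative, 2 cofactors and 7 liver genes were lower, and with no filter 1 distal gene was higher and 2 relatives, 2 cofactors and 0 neuron genes lower. With limma on log2(count + 1), 1 cofactor and 1 gonad gene were higher and 1 stromal gene lower, with both FPKM fits 1 cofactor was higher, and with log2(FPKM + 0.1) 3 induction genes were. Without DMSO replicates 2 and 4, 3 induction genes were higher and 2 cofactors, 1 stromal and 0 neuron genes lower. With 1 sample left out, the counts ranged from 0 to 1 for higher progenitor genes (1 without CHIR99021 replicate 1 or 2), 0 to 1 for higher distal genes (1 without DMSO replicate 4 or CHIR99021 replicate 1), 2 to 4 for lower cofactors (2 without DMSO replicate 4 or CHIR99021 replicate 2), 1 to 2 for lower stromal genes (1 without CHIR99021 replicate 1), 0 to 1 for lower neuron genes (1 without CHIR99021 replicate 2), 1 to 2 for lower gonad genes (2 without CHIR99021 replicate 2) and 1 to 3 for lower liver genes (1 without DMSO replicate 2 or 4 or any CHIR99021 sample). Depth limited the values of low genes such as Emx1, with 14 counts in the CHIR99021 group.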
